A study of Mus musculus with 8 samples.

Results

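The genes described here encode the proteins of the cytosolic ribosome, and they were followed in follicular regulatory T (TFR) cells of mouse spleen. Members were all genes of the deposited count table whose symbol is that of a large-subunit protein (Rpl), a small-subunit protein (Rps), an acidic stalk protein (Rplp0, Rplp1, Rplp2) or Rpsa, and whose summed count over the 8 libraries reached 100. The S6 kinases (Rps6k) were left out. Of 24421 genes, 84 had such a symbol and 81 reached the minimum, 48 of the large and 33 of the small subunit. Rpl39l (129 counts) and Rpl30 (312 counts) lay just above the minimum, and Rpl3l (6 counts), Rpl10l (1 count) and Rpl26 (0 counts) lay below it.

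The study compared 4 libraries of Blimp1-flox mice, which carry a floxed Blimp1 gene and Foxp3-cre, with 4 libraries of wildtype (WT) mice. Blimp1, encoded by Prdm1, is a transcriptional repressor of activated and differentiated lymphocytes, and Foxp3-cre deletes floxed DNA in cells that express Foxp3, so every regulatory T cell and not the TFR cell alone is targeted. All mice of both groups had been challenged orally 2 times with peanut together with cholera toxin, and the cells were collected 36 days after challenge. CD4+ T cells of the spleen were gated on Foxp3-YFP, CXCR5 and PD1. The labels do not give the age of the mice, if Foxp3-cre was also present in the WT mice, if the Blimp1 flox was on 1 or both alleles, or if each library was a separate mouse, so the p-values measure the spread between libraries, which may be technical in part.

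A cytosolic ribosome joins a 40S subunit, which reads the mRNA, to a 60S subunit, which forms the peptide bond, and each subunit holds a fixed set of proteins around ribosomal RNA. The mRNAs of these proteins typically begin with a cytosine followed by a run of pyrimidines, the 5′ terminal oligopyrimidine (TOP) motif, through which mTORC1 and the binding protein Larp1 control their translation together. Lymphocytes raise ribosome production when they are activated, and mTORC1 signalling is known to matter for regulatory T cell function. In sequenced poly(A) RNA the quantity measured is the amount of mRNA relative to all other mRNA, not the rate at which it is translated.

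The libraries held 16425538 to 27595939 counts in Blimp1-flox cells and 22788722 to 26279365 counts in WT cells. Prdm1 checked the labels, with 13.4, 7.52, 9.60 and 16.6 CPM (counts scaled to a common library size, with TMM factors) in Blimp1-flox libraries 1 to 4, against 39.1, 31.8, 65.1 and 71.0 CPM in WT libraries 1 to 4. The groups did not overlap, and Prdm1 was lower in Blimp1-flox cells, with a log2 difference of -2.14 ± 0.31 (SE) and an adjusted p of 0.0203 in edgeR. The call was lost without Blimp1-flox 1 (edgeR adjusted p = 0.103). The labels do not name the floxed exons, and the count covers the whole gene. Summed markers of TFR cells lay at 6768 to 7890 CPM in Blimp1-flox and 6738 to 8094 CPM in WT libraries. All 11 measured genes of the list were detected, and the groups overlapped in each of them except Il2ra. Il2ra had 28.1 to 55.4 CPM in Blimp1-flox and 81.2 to 121 CPM in WT libraries. Foxp3 had 55.7 to 75.4 CPM in Blimp1-flox and 72.5 to 105 CPM in WT libraries. Blimp1-flox 3 and WT 4 stood apart from the other libraries in a principal component analysis of all genes, and B cell markers summed to 2074 CPM in WT 4, against 537 to 893 CPM in the other libraries.

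Ribosomal protein mRNA made up a slightly larger part of the counts in Blimp1-flox cells, by less than the spread between libraries. All 81 members together took 1.47%, 1.09%, 1.29% and 1.22% of the counts in Blimp1-flox libraries 1 to 4, against 1.23%, 0.996%, 1.11% and 1.26% in WT libraries 1 to 4. The groups overlapped, with Blimp1-flox 1 the highest and WT 2 the lowest, and their means were 1.27% ± 0.16 in Blimp1-flox and 1.15% ± 0.12 in WT cells (SD, n = 4 each). Of the 81 members, 80 passed the filter on low counts and were tested. None was called at an adjusted p under 0.05 by edgeR's quasi-likelihood test, where 0.501% of the 12363 tested genes were called, and the lowest adjusted p of a member was 0.273. At an unadjusted p under 0.05 edgeR found 2 members, Rps2 among them, where it found 16.2% of all tested genes. DESeq2 called no member either (3 at an unadjusted p under 0.05, beside 17.2% of all tested genes), while calling 3.66% of all tested genes, and limma-voom with quality weights called none (10 at an unadjusted p under 0.05, beside 23.8%), while calling 4.0%.

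The fold changes were small and mostly of 1 sign. Of the 80 tested members, 76 had a positive log2 fold change of Blimp1-flox over WT, 95.0% of them, where 50.1% of all tested genes had one. Their median was 0.11 and their range -0.29 to 0.41, beside a median of 0.0012 over all tested genes. Both subunits gave like values, with a median of 0.098 and 44 of 47 positive for the large subunit and a median of 0.12 and 32 of 33 positive for the small subunit. The sign rested partly on single libraries, since 58 members were positive with a median of 0.039 without Blimp1-flox 1, and 57 of 81 were positive with a median of 0.045 without WT 2. Since the 80 genes are measured in the same 8 libraries and move together there, their number does not replace replication.

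Each library carried its own level of ribosomal protein mRNA, shared by nearly all members. For this description 4 tested members were set aside, the 3 whose exons lie mostly inside another gene record (below, with the lengths) and the sparsely counted Rps4l, which leaves 76. The median deviation of these genes from their own mean over the 8 libraries was 0.25, -0.15, 0.10 and 0.014 on the log2 CPM scale in Blimp1-flox libraries 1 to 4, against 0.088, -0.26, -0.11 and 0.062 in WT libraries 1 to 4. Libraries of both groups lay on both sides of 0, as the plot of the members by library shows. In Blimp1-flox 1, 74 of the 76 genes were above their own mean, and it was the highest library for 51 of them. In WT 2 none was above its mean, and it was the lowest library for 68. Blimp1-flox 2 and WT 3 were each above the mean for 2 genes, so that the low libraries came from both groups. The gap between the highest and the lowest library was 0.53 in the median gene, with a range of 0.28 to 1.29, several times the median difference between the genotypes.

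**Figure D1:**
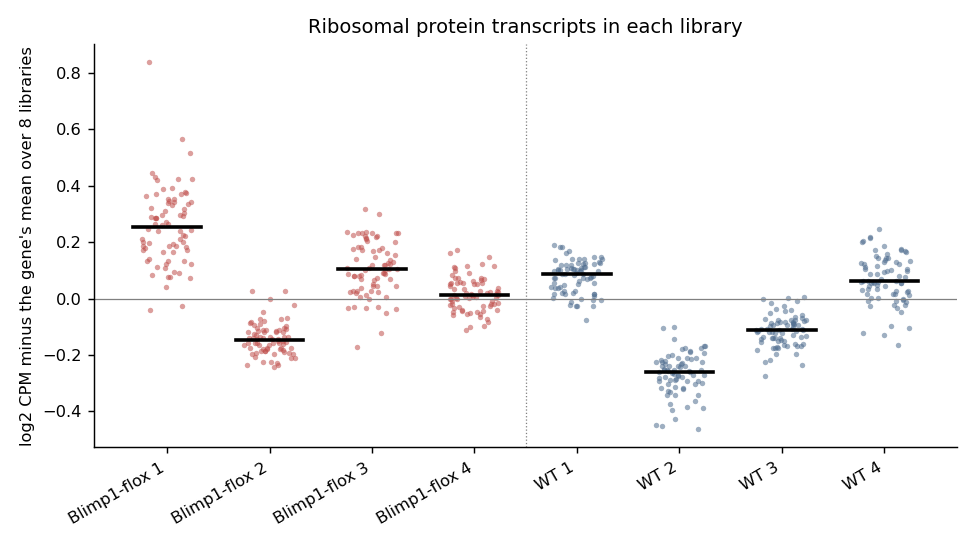
Log2 CPM of each of 76 ribosomal protein genes minus its own mean over the 8 libraries (vertical axis), by library; points are genes and bars are medians over genes. The genes of a library lie together, highest in Blimp1-flox 1 (median 0.25) and lowest in WT 2 (median -0.26), and Blimp1-flox 2 (-0.15) lies below WT 1 (0.088) and WT 4 (0.062).

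The sequence at the transcription start shows the TOP feature that many of these genes share. RefSeq promoter windows of GRCm38.p6, the assembly behind mm10, were matched by symbol for 60 of the 81 members. The annotated start lay within 50 bases of the counted gene's start for 58 of the 60, and 1020 bases from it for Rps4x. The windows run from 250 bases before the annotated start to 50 after it. A tract was counted where an unbroken run of C and T on the gene's strand, taken from its first C, was at least 5 bases long and came within 10 bases of the start. Such a tract was present in 39 of the 60 windows, or 65.0%, and in 35.8% of all 32851 promoter windows in the table. The 4 genes shown first below carry tracts of 6 to 20 bases, and the last 2, Rpsa and Rpl10, carry none by this rule. Of the members, Rpsa had the largest fold change and Rpl10 the only values that did not overlap between the genotypes. Whether the annotated start of a gene is the one used in these cells was not tested. Each line gives 20 bases before the start and 20 from the start on, 5′ to 3′ on the gene's strand, so that the annotated start is base 21, and capitals mark the tract.
Rps6, chr4:86857348-86857387, minus strand: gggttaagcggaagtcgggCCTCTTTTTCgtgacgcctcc
Rplp2, chr7:141447631-141447670, plus strand: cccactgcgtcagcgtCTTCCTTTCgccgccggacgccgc
Rpl27a, chr7:109519175-109519214, plus strand: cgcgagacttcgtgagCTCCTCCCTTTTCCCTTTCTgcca
Rps2, chr17:24720043-24720082, plus strand: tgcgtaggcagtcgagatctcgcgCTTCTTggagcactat
Rpsa, chr9:120127746-120127785, plus strand: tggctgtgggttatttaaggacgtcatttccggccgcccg
Rpl10, chrX:74270796-74270835, plus strand: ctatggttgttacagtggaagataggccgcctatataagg

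Genes with and without a tract covered overlapping ranges of fold change, described here without a test. The 38 tested genes with a tract had a median log2 fold change of 0.12, from -0.098 in Rpl34 to 0.27 in Rps2, and 36 were positive. The 21 without one had a median of 0.13, from 0.012 in Rpl11 to 0.41 in Rpsa, and all 21 were positive. The letters AGNGAAAG, a core of the motif that Blimp1 binds, were searched on both strands of the whole windows and may lie anywhere in them, overlapping a tract or not. They were found in 10 of the 60 members' windows, or 16.7%, and in 8.63% of all windows. The 10 genes, Rps2, Rps4x, Rps27, Rps28, Rpl19, Rpl31, Rpl35, Rpl35a, Rpl37 and Rpl39, had a median log2 fold change of 0.12, the same to 2 decimals as the 49 tested genes without the letters. A match describes the letters in the window and not a bound site.

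Among small-subunit proteins Rpsa had the largest fold change. Rpsa lies on the solvent side of the 40S subunit and is also known as the precursor of the laminin receptor. Its gene spans chr9:120127766-120132369 of mm10. Rpsa had 673, 335, 369 and 398 CPM in Blimp1-flox libraries 1 to 4, against 393, 275, 335 and 336 CPM in WT libraries 1 to 4. Blimp1-flox 1 stood far above every other library and the rest overlapped. The log2 fold change was 0.41 ± 0.20 (SE, edgeR adjusted p = 0.354), and it was 0.13 without Blimp1-flox 1.

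Rps2 and Rps3 stand at the entry of the mRNA path into the 40S subunit. Rps2 (chr17:24720063-24721927) had 375, 266, 304 and 291 CPM in Blimp1-flox libraries, against 283, 227, 254 and 262 CPM in WT libraries. Blimp1-flox 1 was the highest and WT 2 the lowest library, and the groups overlapped. The log2 fold change was 0.27 ± 0.11 (SE), with an unadjusted p of 0.0341 and an adjusted p of 0.273 in edgeR, a fold of 1.20. Rps3, which also has roles outside the ribosome in DNA repair, averaged 382 ± 55.1 CPM in Blimp1-flox and 327 ± 30.9 CPM in WT cells (SD, n = 4 each), a log2 difference of 0.23 with an adjusted p of 0.348 in edgeR.

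Rps6 is the substrate of the S6 kinases, and its tract is the first shown above. Phosphorylation of the Rps6 protein, which mRNA counts do not measure, is the usual readout of mTORC1 activity. Rps6 mRNA had 187, 156, 187 and 167 CPM in Blimp1-flox libraries, against 169, 142, 157 and 166 CPM in WT libraries. The groups overlapped, with WT 1 above Blimp1-flox 2 and Blimp1-flox 4. The log2 fold change was 0.14 ± 0.095 (SE, edgeR adjusted p = 0.486). Rps19, the gene most often mutated in Diamond-Blackfan anaemia, averaged 260 ± 30.1 CPM in Blimp1-flox and 229 ± 26.4 CPM in WT cells (log2 fold change 0.18, edgeR adjusted p = 0.440). Rps27a, made as a fusion with ubiquitin, averaged 125 ± 18.0 CPM in Blimp1-flox and 115 ± 12.5 CPM in WT cells, a log2 fold change of 0.11. Rps12 had a value of 0.22 and Rps7, mutated in some patients with the same anaemia, 0.0076.

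Among large-subunit proteins Rpl10 was the only member of either subunit whose groups did not overlap. Rpl10 is the last protein to join the 60S subunit and lies near the peptidyl transferase centre, and its gene spans chrX:74270816-74273135. It had 178, 162, 169 and 165 CPM in Blimp1-flox libraries, against 158, 132, 151 and 161 CPM in WT libraries. The margin was narrow, with the lowest Blimp1-flox library at 162 CPM and the highest WT library at 161 CPM. The log2 fold change was 0.16 ± 0.089 (SE, edgeR adjusted p = 0.386). Of all 12363 tested genes, 3.75% had Blimp1-flox values wholly above and 4.72% wholly below the WT values, against 1 and 0 of the 80 members.

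Rplp0 forms the base of the ribosomal stalk, and Rplp1 and Rplp2 its flexible arms, which recruit the translation factors that hydrolyse GTP. Rplp0 had 659, 496, 530 and 564 CPM in Blimp1-flox libraries, against 548, 440, 480 and 476 CPM in WT libraries. Only WT 1 reached into the range of the Blimp1-flox libraries, which otherwise lay higher. The log2 fold change was 0.21 ± 0.11 (SE, edgeR adjusted p = 0.352), and those of Rplp1 and Rplp2 were both 0.12 (edgeR adjusted p = 0.711 and 0.654). Rplp1 went to -0.029 without Blimp1-flox 1.

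Rpl3, which reaches towards the peptidyl transferase centre, and Rpl35a had log2 fold changes of 0.22 and 0.25 (edgeR adjusted p = 0.341 and 0.338). Rpl5 and Rpl11 bind 5S ribosomal RNA and, when ribosome assembly fails, the p53 regulator Mdm2, so they are often read together. Rpl5 averaged 104 ± 16.1 CPM in Blimp1-flox and 92.1 ± 13.0 CPM in WT cells (log2 fold change 0.18, edgeR adjusted p = 0.513). Rpl11 averaged 93.5 ± 12.2 CPM in Blimp1-flox and 92.7 ± 12.01 CPM in WT cells (log2 fold change 0.012, edgeR adjusted p = 0.971). The Rpl5 exons overlap those of Fam69a on the opposite strand over 47.7% of their bases, and the sources used here do not give the strand setting of the counting, so reads of the pair cannot be told apart. The same holds for Rpl31 with Tbc1d8 (33.1%) and Rps25 with Ccdc84 (29.4%).

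Negative values were few and sat mostly in genes with little coverage. Rpl30 had 1.28, 1.41, 2.01 and 1.11 CPM in Blimp1-flox libraries, against 2.10, 1.51, 1.67 and 1.86 CPM in WT libraries. The groups overlapped, and its value of -0.29 ± 0.33 (SE, log2 fold change, adjusted p = 0.702 in edgeR) was the lowest of all members. Rps4l had -0.17, Rpl34 -0.098 and Rpl27a -0.024 (edgeR adjusted p = 0.806, 0.864 and 0.937). Of these 4 only Rpl27a had more than 1000 counts, and it turned to 0.061 without WT 4.

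**Figure D2:**
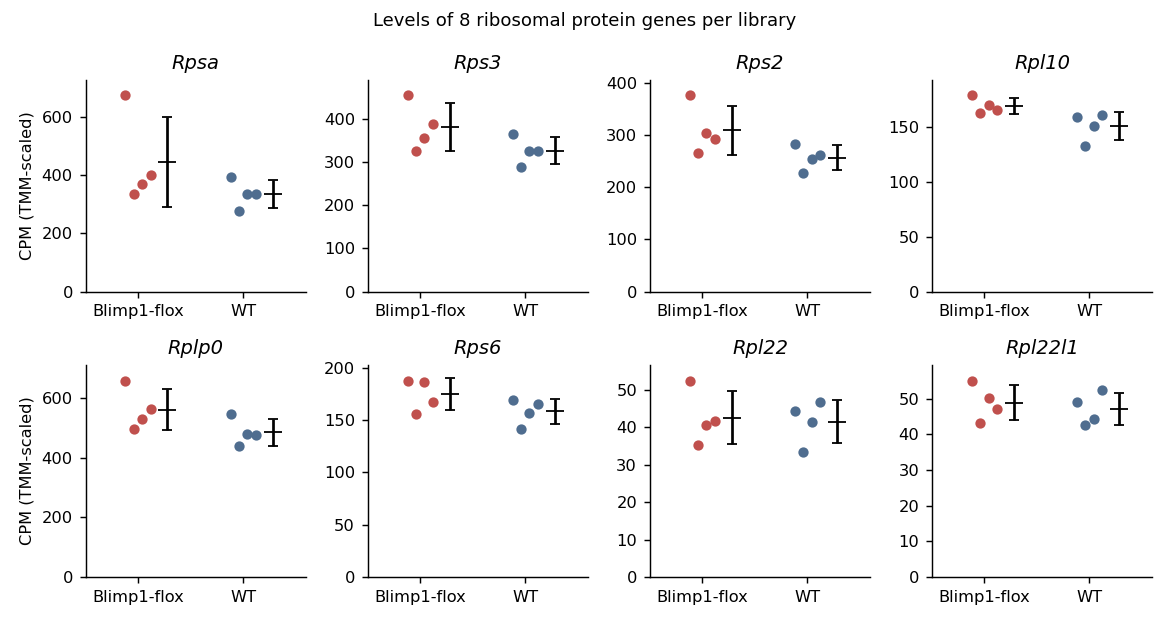
CPM of 8 ribosomal protein genes in each library (points, in library order 1 to 4 within a group), with mean ± SD beside them (n = 4 each; axes start at 0). Rpsa shows 1 library at 673 CPM above 3 at 335 to 398 CPM in Blimp1-flox cells, and Rpl10 is the gene whose groups do not overlap, 162 to 178 CPM in Blimp1-flox against 132 to 161 CPM in WT cells.

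Ribosomal genes outside the symbol rule had values in the same range. Fau, a fusion of a ubiquitin-like protein with a 40S protein, had 0.13 on the log2 scale (edgeR adjusted p = 0.654). Rack1 (listed as Gnb2l1), a signalling scaffold on the head of the 40S subunit, had 363, 217, 265 and 268 CPM in Blimp1-flox libraries, against 258, 200, 227 and 249 CPM in WT libraries. Blimp1-flox 1 was again the highest library and WT 2 the lowest, and the groups overlapped (log2 fold change 0.25 ± 0.14 SE, edgeR adjusted p = 0.402).

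The balance of the subunits was compared within each library. Summed large-subunit counts over summed small-subunit counts gave 1.36, 1.45, 1.47 and 1.41 in Blimp1-flox libraries, against 1.44, 1.47, 1.47 and 1.48 in WT libraries. The means were 1.42 ± 0.048 in Blimp1-flox and 1.47 ± 0.019 in WT cells (SD, n = 4 each), and the groups overlapped. Without Rpsa the ratios were 1.52, 1.56, 1.58 and 1.53 in Blimp1-flox libraries, against 1.56, 1.58, 1.59 and 1.59 in WT libraries, and Blimp1-flox 1 and Blimp1-flox 4 lay below every WT library in both versions.

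Several ribosomal proteins have a paralog, and their mRNA ratio within a library does not depend on how libraries are scaled. Rpl22 and Rpl22l1 are the pair best known in T cells, since loss of Rpl22 in mice blocks the development of alpha-beta T cells and Rpl22 restrains its paralog. Rpl22l1 had 55.02, 43.3, 50.2 and 47.1 CPM in Blimp1-flox libraries, against 49.1, 42.5, 44.3 and 52.4 CPM in WT libraries. Rpl22 had 52.5, 35.4, 40.7 and 41.8 CPM in Blimp1-flox libraries, against 44.4, 33.5, 41.4 and 46.8 CPM in WT libraries. Both genes overlapped between the groups and followed the library pattern of the other members. Per base of coding sequence the 2 genes stood at a ratio of Rpl22l1 to Rpl22 of 1.21 in Blimp1-flox and 1.20 in WT cells, and their log2 count ratio differed by 0.020 between the groups (exact two-sided permutation test over 70 assignments, p = 0.857).

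Of the 8 pairs listed, 5 had both genes tested. The log2 count ratio differed between Blimp1-flox and WT cells by 0.043 for Rpl7l1 to Rpl7 and by -0.036 for Rpl36al to Rpl36a (exact permutation p = 0.857 and 0.743). The difference was -0.29 for Rps4l to Rps4x and 0.16 for Rps27l to Rps27 (exact permutation p = 0.314 and 0.400). After Benjamini-Hochberg adjustment over the 5 pairs every exact permutation p was 0.857, where 0.0286 is the smallest unadjusted value that 70 assignments can give. Rps27l, a target gene of p53, was set against an Rps27 count that may rest on part of its exons. Rpl39l, a paralog typical of the testis, did not pass the filter on low counts. It had 0.608, 0.208, 0.288 and 0.0852 CPM in Blimp1-flox libraries, against 3.31, 0.0432, 0.219 and 0.597 CPM in WT libraries, so that WT 1 alone held most of its 129 counts.

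Levels of different genes were compared per length, as RPKM, CPM divided by gene length in kilobases. The median member had 174 RPKM over all 8 libraries, beside a median of 11.03 RPKM over all tested genes. By this level the median rank of a member was 395 of 12363, 5 members were among the first 100 genes and 45 among the first 500. Rpl13 (591 RPKM) and Rpl32 (509 RPKM) were the highest. Rpl30 (2.59 RPKM), Rps4l (3.86 RPKM) and Rps27 (6.97 RPKM) were the lowest. Neighbours in this order mostly differed by less than their spread, as the plot of levels shows.

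The length column shaped this order. Its values equal the merged bases of the exon coordinates deposited with the counts for all 84 symbols. They therefore include every exon listed for a gene, however rarely it is used. For the 80 members with a coding length, the median ratio of length to the coding length of the principal transcript was 1.40, and it was above 2 for 20 genes. Rps15a was the extreme, with 5134 bases against 393 coding bases, a ratio of 13.1. Its level was 21.0 RPKM by the deposited length and 274 by the coding length, and that of Rpl22 was 16.8 RPKM and 109. By coding length the median of 79 tested members was 255, and Rpl41, which encodes the shortest of these proteins, was the highest at 2233. Over the 76 genes used above, the highest level was 35.1 times the lowest by deposited length and 24.5 times by coding length. Fold changes between the genotypes use the same gene in both groups and do not depend on this choice.

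**Figure D3:**
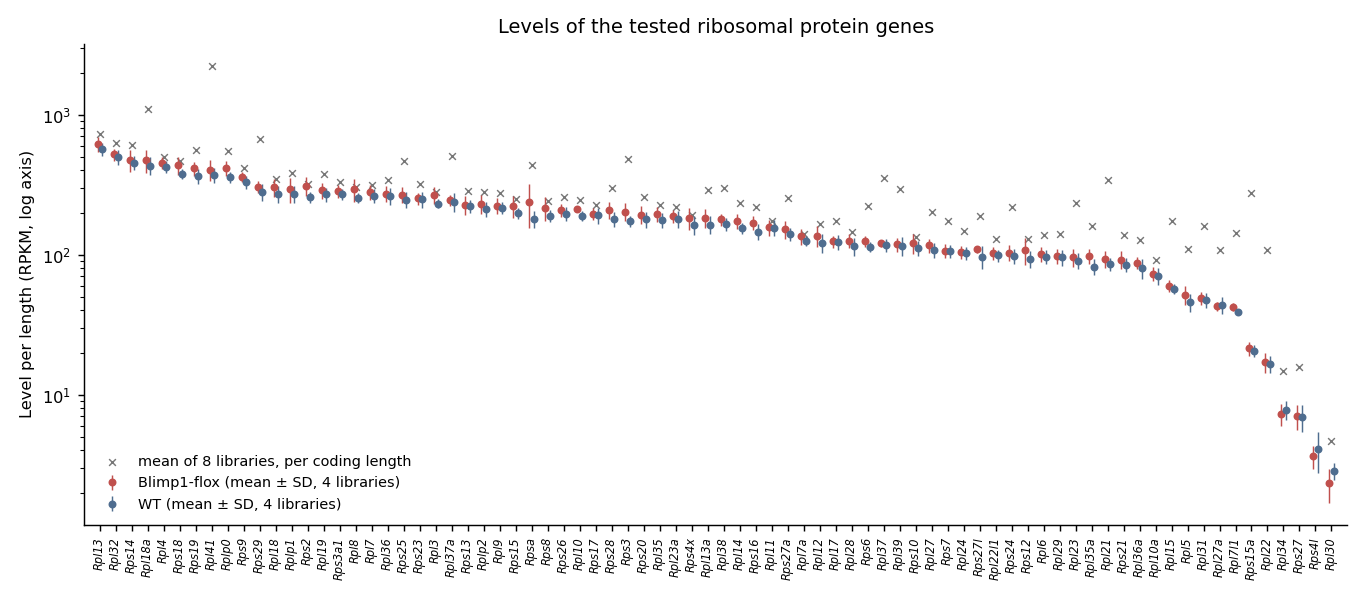
Level per length of 78 tested ribosomal protein genes (RPKM, log axis) as mean ± SD of 4 libraries in Blimp1-flox and in WT cells, ordered by the mean over all libraries; crosses give the mean of 8 libraries per base of coding sequence. The means of both groups lie close together, from Rpl13 (591 RPKM) to Rpl30 (2.59 RPKM), and the crosses lie far above the points where the gene model is long, as for Rps15a (21.0 RPKM, 274 by coding length).

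Low values of 4 genes coincided with exons that a second gene record shares on the same strand. Rpl26 shared 95.8% of its exon bases with Gm15772 and had 0 counts in all 8 libraries. Rpl30 shared 76.0% with Gm12191 and had 312 counts, Rps27 shared 60.0% with Rps27rt and had 755, and Rpl34 shared 59.9% with Rpl34-ps1 and had 978. The second record was itself at 0 counts in each case. With all counts divided by the unshared bases alone, Rpl30 had 2.08, Rps27 3.28 and Rpl34 3.54 counts per base. The 76 other genes had a median of 35.03 and a range of 3.16 to 111 counts per base. The levels of these 4 genes are therefore uncertain, and their values between the genotypes may rest on the unshared part of the exons. Where their reads lie was not tested. How the counting treated reads in shared exons or reads that match several places is not given in the sources used here. Processed pseudogenes of ribosomal proteins are common in the mouse genome, and the 7 named pseudogene records of member genes in the table held 0 to 410 counts, the most in Rpl14-ps1.

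Short genes in general shared the library pattern. Other tested genes under 1000 bases, 917 in number, had a median log2 fold change of 0.11 and 67.3% of them were positive, and the 62 members under 1000 bases had a median of 0.11 with 95.2% positive. Median deviations of the 917 genes were 0.24, -0.094, 0.0096 and 0.076 in Blimp1-flox libraries, against 0.039, -0.19, -0.073 and 0.032 in WT libraries. Blimp1-flox 1 was again the highest and WT 2 the lowest. By length class, the median log2 fold change of the other genes was 0.097 under 600 bases, 0.11 from 600 to 1000, 0.070 from 1000 to 2000, 0.0053 from 2000 to 4000 and -0.081 from 4000 bases on. Members had 0.11, 0.11 and 0.12 in the first 3 classes, which hold 76 of the 80. From 1000 to 2000 bases they lay above the other genes of the class. The classes and the length trend use the deposited length, which includes every listed exon. Members of that class can have short coding sequences, as Rpl15 (1841 bases, 615 coding) and Rpl21 (1856 bases, 483 coding). Coding lengths of the other genes were not compared. With the length trend of each library taken out, the median of the 80 members was 0.047 and 56 were positive. The part of gene length in the members' values was described by these figures and not tested.

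**Figure D4:**
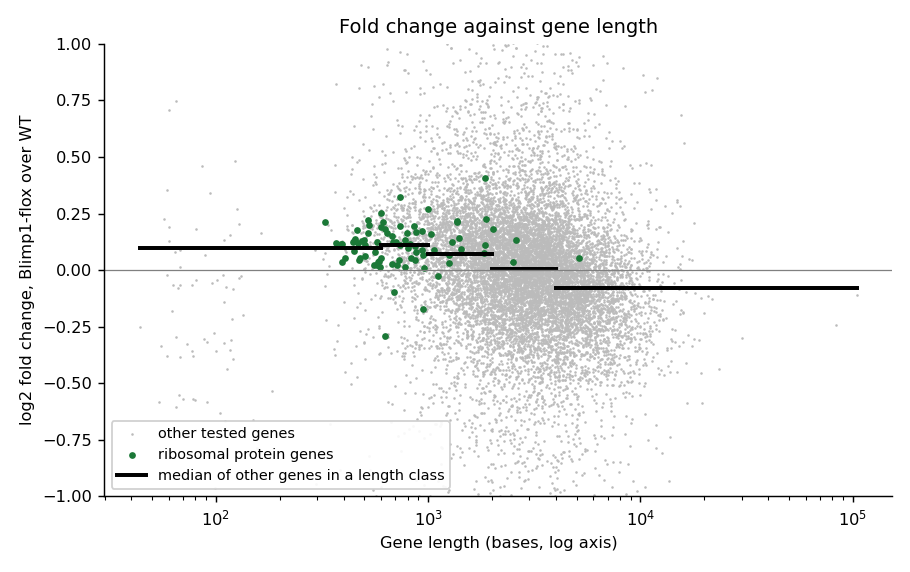
Log2 fold change of Blimp1-flox over WT against gene length (bases, log axis); grey points are other tested genes, green points the 80 ribosomal protein genes, and bars the medians of other genes in 5 length classes. The medians run from 0.097 under 600 bases to -0.081 from 4000 bases on, and most green points lie between 0 and 0.25 near the short end; 411 other genes lie outside the plotted range.

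Other parts of the translation apparatus were counted in the same fit. All lists below are to be read beside the shares over all tested genes. Fold changes of genes outside the family also ran with gene length, as given above, and the lengths of the listed genes were not compared. An unadjusted p under 0.05 was found for 16.2% of them in edgeR, 17.2% in DESeq2 and 23.8% in limma-voom. Calls were made for 0.501%, 3.66% and 4.0% in turn, and 50.1% had a positive value in edgeR. Blimp1-flox values lay wholly above the WT values in 3.75% and wholly below in 4.72%. Of the 77 proteins of the mitochondrial ribosome, which translates the few mRNAs of the mitochondrial genome, none was called by edgeR, DESeq2 or limma-voom (14, 14 and 22 at an unadjusted p under 0.05), and 68 were positive with a median of 0.13. Mrps27, a small-subunit protein of that ribosome, had 40.5, 33.6, 36.8 and 35.2 CPM in Blimp1-flox libraries, against 27.3, 28.1, 32.996 and 23.5 CPM in WT libraries. Its groups did not overlap (log2 fold change 0.38 ± 0.12 SE, edgeR adjusted p = 0.184). Mrpl36 and Mrpl17 of its large subunit had 0.37 and 0.34 (edgeR adjusted p = 0.231 and 0.198).

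The list of elongation factors held 10 genes, among them the kinase Eef2k and the release factors Gspt1 and Etf1. Of these 10 genes edgeR called none, and DESeq2 and limma-voom called Eef2k alone (2 at an unadjusted p under 0.05 in each tool). In the list 9 were positive, and the median over all 10 was 0.16. Eef1a1, which delivers aminoacyl-tRNA, and Eif5a, which helps peptide bonds form at difficult sequences, had 0.20 and 0.30 (edgeR adjusted p = 0.359 and 0.225). The exception was Eef2k, the kinase that inhibits elongation factor 2, with 4.74, 6.98, 6.83 and 5.71 CPM in Blimp1-flox libraries, against 13.5, 9.72, 10.97 and 12.1 CPM in WT libraries. Its groups did not overlap. The log2 fold change was -0.93 ± 0.19 (SE), with an adjusted p of 0.0559 in edgeR, 6.6e-04 in DESeq2 and 0.0105 in limma-voom. It was 0.0420 in edgeR with no filter on low counts, so the call depended on the tool and the filter.

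Of the initiation factors 34 of 35 were tested, with none called by edgeR, DESeq2 or limma-voom (8, 9 and 15 at an unadjusted p under 0.05), 22 positive and a median of 0.11. Eif6, which keeps free 60S subunits apart from 40S subunits, had 0.31, the subunit Eif3k 0.29 and the RNA helicase Eif4a2 -0.29 (edgeR adjusted p = 0.216, 0.247 and 0.186). A list of genes with a TOP mRNA held 21 symbols. It repeats several elongation and initiation factors of the lists above, and Rack1 and Gnb2l1 in it are the same gene. Of the list 20 were tested, with none called by edgeR, DESeq2 or limma-voom (2, 2 and 3 at an unadjusted p under 0.05). Among the 20, 14 were positive, and their median was 0.12 over all 20. Eif3f had 0.35, and Gas5, a non-coding TOP transcript that hosts small nucleolar RNAs, -0.28 (edgeR adjusted p = 0.266 and 0.238).

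Genes for the assembly of ribosomes had mostly negative values, and 1 was called by some tools. Of 78 symbols listed for ribosome biogenesis 74 were tested, with 29 positive and a median of -0.051. None was called by edgeR and 1 each by DESeq2 and limma-voom (9, 10 and 18 at an unadjusted p under 0.05). Riok3, a kinase of late 40S precursors, had 121, 146, 149 and 141 CPM in Blimp1-flox libraries, against 166, 196, 193 and 213 CPM in WT libraries. Its groups did not overlap, and its log2 fold change was -0.46 ± 0.10 (SE), with an adjusted p of 0.0701 in edgeR, 0.0033 in DESeq2, 0.0149 in limma-voom and 0.0354 in edgeR without WT 1. Taf1d of the RNA polymerase I machinery had -0.41 and the nucleolar helicase Ddx21 -0.25 (edgeR adjusted p = 0.158 and 0.197). Of 38 symbols listed for regulators of ribosomal RNA and ribosomal protein synthesis 36 were tested. None was called by edgeR or DESeq2 and 1 by limma-voom (4, 5 and 10 at an unadjusted p under 0.05). With 13 positive, the median over these regulators was -0.035. Among them Nvl, an ATPase of 60S assembly, had -0.37, the importer Ipo7 -0.31 and the polymerase I cofactor Tcof1 -0.28 (edgeR adjusted p = 0.171, 0.269 and 0.186). Tcof1 was the 1 that limma-voom called (adjusted p = 0.0493).

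In the plot of gene sets by library, the mitochondrial ribosomal proteins had median deviations of 0.23, -0.091, 0.050 and 0.084 in Blimp1-flox libraries, against 0.0043, -0.19, -0.057 and -0.042 in WT libraries. The ribosome biogenesis genes had -0.083, -0.049, 0.088 and -0.037 in Blimp1-flox libraries, against 0.023, 0.079, -0.0051 and 0.046 in WT libraries. The first set was thus highest in Blimp1-flox 1 and lowest in WT 2, as the cytosolic ribosomal proteins were, and the second was lowest in Blimp1-flox 1. Whether any set differed from another was not tested.

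**Figure D5:**
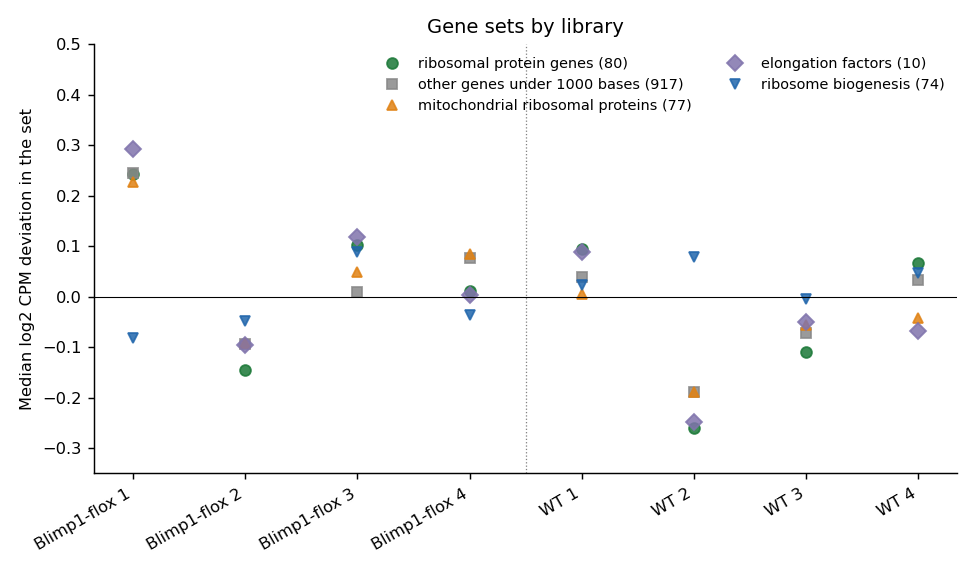
Median log2 CPM deviation from each gene's mean over 8 libraries, by library. In order, the sets are 80 ribosomal protein genes, 917 other genes under 1000 bases and 77 mitochondrial ribosomal protein genes. They are followed by 10 genes listed with the elongation factors and 74 ribosome biogenesis genes. The first 4 sets are highest in Blimp1-flox 1 (0.23 to 0.29) and lowest in WT 2 (-0.26 to -0.19), while the biogenesis genes are lowest in Blimp1-flox 1 (-0.083).

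Markers of the other cell types that the gate or the organ could hold were summed per library. B cell markers (10 measured) summed to 537 to 649 CPM in Blimp1-flox and 566 to 2074 CPM in WT libraries. Plasma cell markers (7) summed to 281 to 392 CPM in Blimp1-flox and 340 to 392 CPM in WT libraries, and myeloid markers (10) to 85.8 to 216 CPM in Blimp1-flox and 99.0 to 135 CPM in WT libraries, with Blimp1-flox 1 the highest. CD8 T and NK markers (7) summed to 49.9 to 54.7 CPM in Blimp1-flox and 41.4 to 51.8 CPM in WT libraries, with WT 2 the lowest. Erythroid and platelet markers (8, with the 4 haemoglobin genes at 0) summed to 5.10 to 13.96 CPM in Blimp1-flox and 13.4 to 29.0 CPM in WT libraries. Acinar genes of the pancreas (14), an organ beside the spleen, summed to 51.8 to 105 CPM in Blimp1-flox and 33.2 to 69.8 CPM in WT libraries. The part of any of these cells in the ribosomal protein values was not tested. Without WT 4 and Blimp1-flox 3, the libraries that stood apart, the members' median was 0.13 with 76 positive. In bulk samples, fewer cells of a type and less mRNA per cell cannot be told apart.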

How the data were processed

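The authors deposited raw, unscaled counts of reads for each gene. Reads were aligned to mm10 by STAR 2.5.2b and counted by featureCounts (Subread 1.5.1), as the submitters' processing notes state. The labels' protocols name the KAPA mRNA HyperPrep kit for the libraries. The gene annotation, strand setting and treatment of reads matching several places are not given in the sources used here. The deposited table also holds a length column in bases, a measurement of another kind, used for RPKM. The members and gene lists were chosen with earlier results of these data known.

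Counts were filtered with filterByExpr (12363 of 24421 genes), scaled by TMM (factors 0.977 to 1.02) and tested with edgeR 4.0.16 in R 4.3.3 (quasi-likelihood, robust, genotype only). The biological coefficient of variation was 0.192. P-values were adjusted by Benjamini-Hochberg over all tested genes, with calls at an adjusted p under 0.05. Deviations use log2 CPM with a prior count of 2, and paralog ratios have 0.5 added to each count. DESeq2 1.42.0 and limma 3.58.1 (voom with quality weights), other scalings and filters, a replicate block, removal of a length trend and leaving out libraries were alternatives. Named genes were the 6 highest and 6 lowest members by fold change, the 3 highest and 3 lowest by level, the 3 with the smallest p, paralog pairs, a list of well-studied members, and the 3 of each other list with the smallest p. The values of some single genes are not reported here. Coding lengths come from GENCODE M21, and exon overlaps from the exon coordinates deposited with the counts. The test was tried on simulated data before use.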

Additional observations from a re-analysis of the deposited data

Results flagged for a closer look

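Of 126 groups of 4 libraries examined for the named genes, 6 held a library whose gap to the nearest of the other libraries passed Dixon's 95% critical value, where chance gives about 1 in 20. Among ribosomal protein genes, Rpl34 had 4.12 CPM in WT 3, against 5.67 to 5.89 CPM in the other WT libraries. Rpl34 shared 59.9% of its exon bases with Rpl34-ps1, and where its reads lie was not tested. Rpl39l had 3.31 CPM in WT 1, against 0.0432 to 0.597 CPM in the other WT libraries. Outside the family, Eif3f had 212 CPM in Blimp1-flox 1, against 134 to 146 CPM in the other Blimp1-flox libraries, and Eef1a1 had 1451 CPM in WT 2, against 1625 to 1634 CPM in the other WT libraries. Those are the libraries with the most and the least ribosomal protein mRNA. Taf1d had 46.6 CPM in WT 3, against 62.3 to 62.6 CPM in the other WT libraries, and Tcof1 had 266 CPM in WT 2, against 235 to 239 CPM.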

How the results depend on the processing

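No member was called under any scaling, filter, tool or left-out library, nor at an adjusted p under 0.1. Over the left-out libraries the median log2 fold change of the members ranged from 0.039 to 0.18 and the number positive from 57 to 77. Deviations of same-numbered libraries correlated at 0.10, 0.15, -0.10 and -0.11, and 3 of 8 libraries correlated best with their own number. These values cannot settle if equal replicate numbers pair the libraries. With a replicate block the median was 0.11, 76 were positive, 0 members were called, and 52 of all genes were called, against 62 without it. The lowest edgeR adjusted p of a member was 0.172 with the block and 0.273 without it. At an unadjusted p under 0.05 edgeR found 9 members with the block and 2 without it. The share of all genes at that threshold was not computed with the block. DESeq2 called 453 of all genes and limma-voom 494, and without Blimp1-flox 3 and WT 4 together edgeR called 157. Level per length by coding length gave a median of 255, against 174 by deposited length, since the gene models hold more than the coding exons. A coding length from RefSeq proteins was not run.

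Of 55 named genes in 11 settings that leave out no single library, 587 of 605 values kept direction and call. Signs turned, with no call on either side, without WT 4 and Blimp1-flox 3 in Rps4l (0.049), Rpl27a (0.071) and Rps7 (-0.026); with limma-voom in Rpl27a (0.051) and Rpl11 (-0.036); and after removal of the length trend in Rps7 (-0.058), Rpl11 (-0.061), Rps27 (-0.032), Rpl32 (-0.0015), Rpl22l1 (-0.012) and Rpl39 (-0.019). The cause was not tested. Leaving out single libraries gave ranges across 0 in Rpl34 (-0.21 to 0.0042), Rpl27a (-0.080 to 0.061), Rps7 (-0.074 to 0.057), Rpl11 (-0.073 to 0.069), Rps27 (-0.12 to 0.14), Rpl22l1 (-0.0084 to 0.11), Rpl22 (-0.081 to 0.11), Rpl39 (-0.030 to 0.12), Rplp1 (-0.029 to 0.18) and Fau (-0.0048 to 0.19). The paralog ratios ranged from -0.012 to 0.15 for Rpl7l1 to Rpl7, -0.011 to 0.073 for Rpl22l1 to Rpl22 and -0.10 to 0.019 for Rpl36al to Rpl36a. Prdm1 lost its call without a filter (edgeR adjusted p = 0.0502).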
